A study of Homo sapiens with 12 samples.

Results

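Cholesterol and fatty acid synthesis genes were followed through 12 expression arrays of H9 cells, an established human embryonic stem cell line. The 30 genes were listed by name and comprise 7 enzymes of the mevalonate arm, 11 of the sterol arm, 5 regulators of the sterol response, the sterol carrier STARD4, 5 enzymes of fatty acid synthesis and LPIN1. Of these, 28 had a probe set that carried their symbol alone, among 19775 genes tested. FDFT1 and CYP51A1 had none and were not analysed here. All 4 groups of 3 arrays carried a Tet-on GCNF construct, in which doxycycline (Dox) switches on the nuclear receptor GCNF, encoded by NR6A1, and the cells were at passages 28 to 35. The d0 group was untreated and undifferentiated, in mTeSR medium on coated plates. The d0 Dox group was the same with 1 µg/ml Dox for 4 days. The RA-labelled day 6 group received 1 µM retinoic acid (RA) for 6 days, and the Dox-labelled day 6 group received 1 µg/ml Dox for 6 days. Both day 6 groups were grown in DMEM/F12 with 15% fetal bovine serum. The labels do not say whether the construct line was 1 clone, and a control for Dox in construct-free cells was not analysed here, so effects of GCNF and of Dox itself cannot be told apart.

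Cells build cholesterol from acetyl-CoA. The mevalonate arm makes farnesyl diphosphate, which also feeds ubiquinone, dolichol and protein prenylation, and the sterol arm turns it through squalene and lanosterol into cholesterol. Transcription of both arms, and of the enzymes that make and desaturate fatty acids, is driven by the SREBP factors encoded by SREBF1 and SREBF2. These are made as membrane precursors in the endoplasmic reticulum. When sterols are scarce, SCAP escorts them to the Golgi, where proteases release the active factor, and when sterols are plentiful, the INSIG proteins hold SCAP back. INSIG1 is itself a classical SREBP target, whereas INSIG2 is known for being controlled differently.

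The 250 bases before the gene start of SREBF2, INSIG1, INSIG2 and EBP are printed here from RefSeq (build GRCh38.p14), because SREBF2 and INSIG1 are regulators whose signal fell at day 6, INSIG2 is the regulator whose signal rose most, and EBP is the sterol enzyme whose signal fell most in the Dox-labelled cells. Capitals mark matches, on either strand, to a sterol regulatory element (TCACNCCAC), the CCAAT box (CCAAT), the GC box (GGGCGG) and the E-box (CACGTG). INSIG2 has 2 listed starts, of which the more upstream was used.
SREBF2, chr22:41832855-41833104, plus strand: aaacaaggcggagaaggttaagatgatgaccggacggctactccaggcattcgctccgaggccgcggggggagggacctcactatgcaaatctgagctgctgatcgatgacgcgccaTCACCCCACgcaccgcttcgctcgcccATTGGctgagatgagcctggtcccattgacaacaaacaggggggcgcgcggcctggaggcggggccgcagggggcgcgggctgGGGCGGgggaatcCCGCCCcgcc
INSIG1, chr7:155297628-155297877, plus strand: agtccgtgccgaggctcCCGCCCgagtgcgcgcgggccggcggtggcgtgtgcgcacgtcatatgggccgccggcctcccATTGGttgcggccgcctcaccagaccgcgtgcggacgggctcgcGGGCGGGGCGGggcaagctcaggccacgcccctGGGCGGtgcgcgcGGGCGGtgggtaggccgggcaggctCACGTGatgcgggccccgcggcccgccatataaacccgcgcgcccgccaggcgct
INSIG2, chr2:118088221-118088470, plus strand: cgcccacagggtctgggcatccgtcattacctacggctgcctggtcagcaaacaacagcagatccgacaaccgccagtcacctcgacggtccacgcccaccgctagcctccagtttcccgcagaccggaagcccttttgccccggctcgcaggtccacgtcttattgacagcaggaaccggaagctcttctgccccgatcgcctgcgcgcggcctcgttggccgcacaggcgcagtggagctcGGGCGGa
EBP, chrX:48521558-48521807, plus strand: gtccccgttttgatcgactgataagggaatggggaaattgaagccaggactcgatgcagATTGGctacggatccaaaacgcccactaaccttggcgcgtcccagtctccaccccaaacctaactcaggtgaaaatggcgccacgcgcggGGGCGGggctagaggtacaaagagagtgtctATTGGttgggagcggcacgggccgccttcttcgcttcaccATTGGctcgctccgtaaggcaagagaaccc
The sterol regulatory element was matched in SREBF2 alone among the 25 measured members with a promoter entry, at 133 to 125 bases before the start, and in 1.09% of the 27305 genes with an entry. The CCAAT box, bound by NF-Y, a known partner of the SREBPs, was matched in 19 of the 25 members and in 37.0% of all genes. EBP held 3 CCAAT matches, SREBF2 and INSIG1 held 1 each, and none was found in this window of INSIG2. The GC box, the site of SP1, was matched in 24 of the 25 members and in 46.2% of all genes. INSIG1 held 5 GC box matches, 2 of which overlap, and 1 E-box, a motif found in 3 members and in 7.73% of all genes. The matches are descriptions of letters only, and no binding was measured. Only the stated spellings and 250 bases were searched, so an element spelled otherwise or lying elsewhere would be missed.

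Values are probe set intensities on a linear scale, and array medians lay between 64.2 and 78.0 units. Changes are differences of log2(intensity + 16) with their standard errors (SE) from limma, and a gene is said to have risen or fallen when its Benjamini-Hochberg adjusted p over all genes was below 0.05. A fold is on the same scale and understates the change of dim probe sets. The labels call the replicates biological but do not say how the cultures were kept apart, so the p-values measure only the spread between these arrays. Intensity in a bulk culture cannot tell fewer cells of a type from less RNA per cell. NR6A1 read 1328, 1496 and 1548 at d0, 2710.1, 2715 and 3180.2 at d0 with Dox, 503, 509.8 and 571 in RA-labelled and 858, 1264 and 904 in Dox-labelled day 6 arrays. The Dox-labelled day 6 arrays were thus above the RA-labelled ones but below the untreated d0 arrays. CYP26A1, which degrades retinoic acid and is a classical retinoic acid target, averaged 271 ± 37.0 (SD, n = 3) in the arrays labelled RA and 29594 ± 1005 in those labelled Dox at day 6, which goes against those labels. The day 6 groups are therefore called by their labels throughout, and every direction between them rests on those labels. NANOG, a pluripotency factor, averaged 11672, 5468, 639.8 and 36.7 in the d0, d0 Dox, RA-labelled and Dox-labelled groups.

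**Figure D1:**
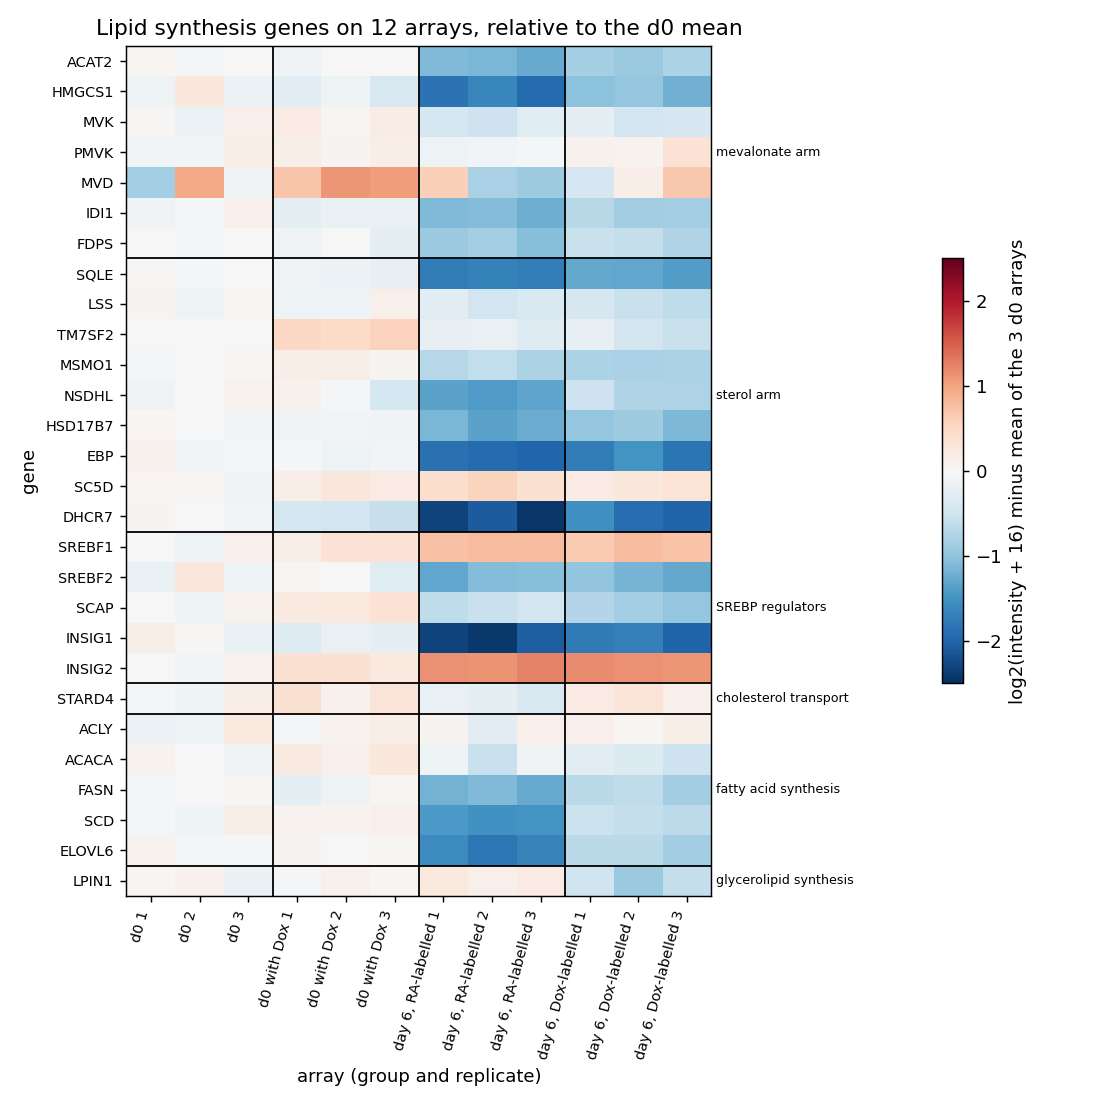
Each cell is the log2(intensity + 16) of a member gene's probe set on 1 of the 12 arrays minus that gene's mean over the 3 d0 arrays, with genes in rows by role and arrays in columns by labelled group, blue where lower and red where higher. Most rows of the mevalonate, sterol and fatty acid groups are lower in the 6 day 6 arrays than in the 6 d0 arrays, while SREBF1 and INSIG2 are higher.

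Cells after 6 days with the RA label were compared with untreated d0 cells to ask how the pathway differs between differentiated and undifferentiated cultures. Of the 28 measured members, 19 fell, 3 rose and 6 did not pass, where 25.2% of all genes were called lower and 25.3% higher. The members' median change was -0.83 (log2), against -0.01 over all genes. The fallen genes came from the mevalonate arm (5 of 7), the sterol arm (8 of 9), the regulators (3 of 5) and fatty acid synthesis (3 of 5). The medium changed with the day, so serum, retinoic acid as labelled and loss of the undifferentiated state cannot be told apart here. All 10 proliferation markers also fell, with summed intensities of 57563 to 64088 at d0 and 13280 to 15691 in the RA-labelled arrays, and their part in the members' change was not tested.

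In the mevalonate arm the largest fall was that of HMGCS1, the synthase that commits acetyl-CoA units to this route. HMGCS1 read 3178, 4197 and 3137 in the d0 arrays and 952, 1109.6 and 902 in the RA-labelled arrays. Every RA-labelled array lay below every d0 array, and the change was -1.80 ± 0.13 (adjusted p = 1.23e-06), 3.49-fold lower. ACAT2, the cytosolic thiolase that supplies HMGCS1 with acetoacetyl-CoA, fell by 1.17 on the log2 scale. IDI1, which isomerises the isoprene unit, fell by 1.14, and FDPS, which joins the units into farnesyl diphosphate, fell by 0.95. MVK, mevalonate kinase, fell by 0.42, the smallest fall of the arm (adjusted p = 0.00444). PMVK, the next kinase, had a change of -0.08 that did not pass (adjusted p = 0.514). MVD, the decarboxylase, was dim, with group means from 15.9 to 55.1 units, and passed in no comparison.

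The sterol arm held the largest fall of all members in this comparison, that of DHCR7, the reductase of the last step to cholesterol. DHCR7 read 2708, 2566 and 2453 at d0 and 504, 599 and 467 in the RA-labelled arrays. The groups stood far apart, with a change of -2.27 ± 0.13 (adjusted p = 1.75e-07), 4.83-fold lower. EBP, the sterol isomerase whose promoter is printed above, read 3351, 2964 and 2982 at d0 and 840.3, 807 and 771 in the RA-labelled arrays. Its groups did not overlap either, and it fell by 1.92 on the log2 scale (SE 0.09, adjusted p = 6.71e-08). SQLE, the oxygenase that acts on squalene, fell by 1.72. NSDHL, a decarboxylase of the C4 demethylation complex, fell by 1.36, HSD17B7, the ketoreductase of that complex, fell by 1.24, and MSMO1, its methyl oxidase, fell by 0.71. TM7SF2, a sterol reductase, fell by 0.24 with an adjusted p of 0.0464, and that call was lost in 11 of 15 alternative analyses, among them every one that left out 1 array. LSS, the cyclase that makes lanosterol, fell by 0.37 on its brightest probe set, but its direction reversed to 0.15 when all of its probe sets were averaged. The further probe sets of LSS were dim, averaging 76.2 and 40.2 units over all arrays. SC5D, a desaturase, was the one member of the arm that rose. It read 10561, 10306 and 9609 at d0 and 13752, 15035 and 13296 in the RA-labelled arrays, with no overlap and a change of 0.46 ± 0.07 (adjusted p = 0.000358). That rise was 0.15 and no longer called when its probe sets were averaged (adjusted p = 0.324).

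The regulators moved in opposite directions within each pair. SREBF2, which encodes the SREBP known mainly for cholesterol genes, read 671, 932 and 700.1 at d0 and 297, 351 and 354 in the RA-labelled arrays. All 3 RA-labelled arrays were below the d0 arrays, and SREBF2 fell by 1.15 on the log2 scale (SE 0.15, adjusted p = 7.25e-05). SREBF1, which encodes the SREBPs known mainly for fatty acid genes, read 371, 342 and 408 at d0 and 634, 653 and 655 in the RA-labelled arrays. Its RA-labelled arrays were all above the d0 arrays, a rise of 0.77 ± 0.08 (adjusted p = 2.01e-05). INSIG1 read 4776, 4434 and 3863 at d0 and 858, 801 and 1034 in the RA-labelled arrays. After DHCR7 this was the largest fall among the members, -2.26 ± 0.12 (adjusted p = 1.12e-07), 4.8-fold. INSIG2 read 587, 567 and 630.1 at d0 and 1336, 1305 and 1423 in the RA-labelled arrays. Its arrays did not overlap, and it had the largest rise of any member, 1.17 ± 0.07 (adjusted p = 3.32e-07), 2.24-fold. SCAP, the escort protein, fell by 0.55 (adjusted p = 0.000385).

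**Figure D2:**
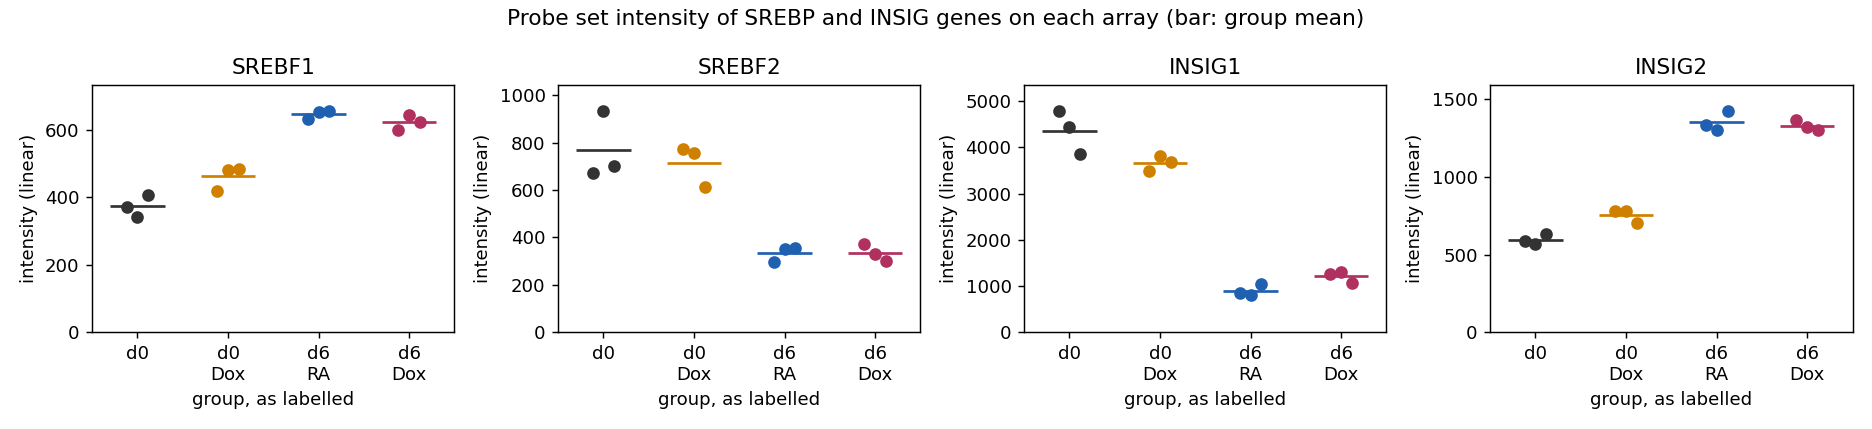
Each point is the linear probe set intensity on 1 array for SREBF1, SREBF2, INSIG1 and INSIG2, with a bar at the mean of the 3 arrays of each labelled group. SREBF2 and INSIG1 are lower in both day 6 groups than in both d0 groups, and SREBF1 and INSIG2 are higher, with the d0 Dox arrays of SREBF1 and INSIG2 between the d0 and day 6 arrays.

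In fatty acid synthesis, ELOVL6, which lengthens the palmitate that FASN makes, had the largest fall. ELOVL6 read 6643, 6078 and 6121 at d0 and 2069, 1779.7 and 1969.8 in the RA-labelled arrays. The groups were separated by more than their spread, with a change of -1.69 ± 0.08 (adjusted p = 6.17e-08), 3.22-fold lower. SCD, the desaturase that makes oleate, fell by 1.48 on the log2 scale, from a mean of 19625 ± 1771 to 7011 ± 225 (SD, n = 3 each). FASN, the fatty acid synthase, fell by 1.19 (adjusted p = 1.49e-06). ACLY, which makes cytosolic acetyl-CoA from citrate, and ACACA, the carboxylase that makes malonyl-CoA, had changes of -0.02 (adjusted p = 0.933) and -0.25 (adjusted p = 0.138) and did not pass on their brightest probe sets, while both were called lower with probe sets averaged (-0.29 and -0.72). STARD4, which carries cholesterol between membranes, read 2229, 2117 and 2563 at d0 and 2008, 1943 and 1725 in the RA-labelled arrays. The RA-labelled arrays were all lower, yet the change of -0.28 ± 0.11 did not pass (adjusted p = 0.051). LPIN1, the phosphatidate phosphatase of glycerolipid synthesis, had a change of 0.19 (adjusted p = 0.2).

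The Dox-labelled day 6 cells were set against the d0 cells given Dox, a comparison whose group means share no array with the one above. The spread behind the SE and p-values was estimated from all arrays together, so these are not separate between the comparisons. Of the 28 members, 21 fell, 2 rose and 5 did not pass, where 23.9% of all genes were called lower and 22.2% higher. The median change was -0.71 (log2) for the members and -0.03 for all genes. When each array was centred on its median the all-gene median moved to 0.11, and the split of called genes moved from 48.2% higher to 60.0% higher, with the members' counts still at 21 and 2. Falls were found in 5 of 7 mevalonate genes, 8 of 9 sterol genes, 3 of 5 regulators, 4 of 5 fatty acid genes and LPIN1. By the labels, medium, day and length of Dox treatment differed together and cannot be told apart. The 10 proliferation markers all fell here too, with sums of 64336 to 66271 at d0 with Dox and 21201 to 24634 in the Dox-labelled arrays, and their part was not tested.

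ACAT2 had the largest fall of the mevalonate arm here, reading 3555, 3798 and 3747 at d0 with Dox and 2117, 1975 and 2181 in the Dox-labelled day 6 arrays. The day 6 arrays were all lower, with a change of -0.82 ± 0.07 (adjusted p = 5.26e-06). The other falls of the arm were -0.80 (log2) for HMGCS1, -0.61 for IDI1, -0.52 for FDPS and -0.52 for MVK. Among sterol enzymes EBP fell most, from 3034, 2839.7 and 2949 at d0 with Dox to 905, 1088 and 861 at day 6. The groups did not overlap, and the change was -1.62 ± 0.09 (adjusted p = 3.42e-07), 3.07-fold lower. DHCR7 followed with a change of -1.33, SQLE with -1.18, TM7SF2 with -0.94, MSMO1 with -0.92, HSD17B7 with -0.91 and NSDHL with -0.57, all called. LSS fell by 0.50, a direction that reversed to 0.21 with its probe sets averaged, and SC5D had a change of 0.05 (adjusted p = 0.634).

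The regulators took the same directions in these arrays as in the RA-labelled ones. INSIG1 read 3486, 3806 and 3689.8 at d0 with Dox and 1265, 1308 and 1069 in the Dox-labelled day 6 arrays, a change of -1.58 ± 0.12 (adjusted p = 2.16e-06). SREBF2 read 775, 757 and 611 at d0 with Dox and 374, 328 and 303 at day 6, a change of -1.05 ± 0.15 (adjusted p = 0.000171). Both genes were lower in every day 6 array. INSIG2 read 784, 784 and 703 at d0 with Dox and 1369, 1325 and 1302 at day 6, a rise of 0.80 ± 0.07 (adjusted p = 7.32e-06). SREBF1 read 419.6, 483 and 485 and then 599.9, 644 and 624, a rise of 0.42 ± 0.08 (adjusted p = 0.00185). Both were higher in every day 6 array, although the SREBF1 call was lost when its probe sets were averaged (adjusted p = 0.135). The further probe set of SREBF1 was dim, averaging 35.4 units over all arrays. SCAP fell by 1.13 on the log2 scale. ELOVL6 had the largest fall of the fatty acid enzymes, from 6618, 6338 and 6407 to 3916, 3941 and 3446, a change of -0.78 ± 0.08 (adjusted p = 2.36e-05). SCD, FASN and ACACA also fell, with changes of -0.70, -0.62 and -0.59. With probe sets averaged the change of SCD was -1.20 and the FASN call was lost (adjusted p = 0.122). The further probe set of FASN averaged only 15.4 units over all arrays. LPIN1 read 796, 871 and 843 at d0 with Dox and 567, 419 and 530.0 in the Dox-labelled day 6 arrays. Every day 6 array was lower, a change of -0.72 ± 0.12 (adjusted p = 0.000454). PMVK, MVD, SC5D, STARD4 and ACLY did not pass.

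**Figure D3:**
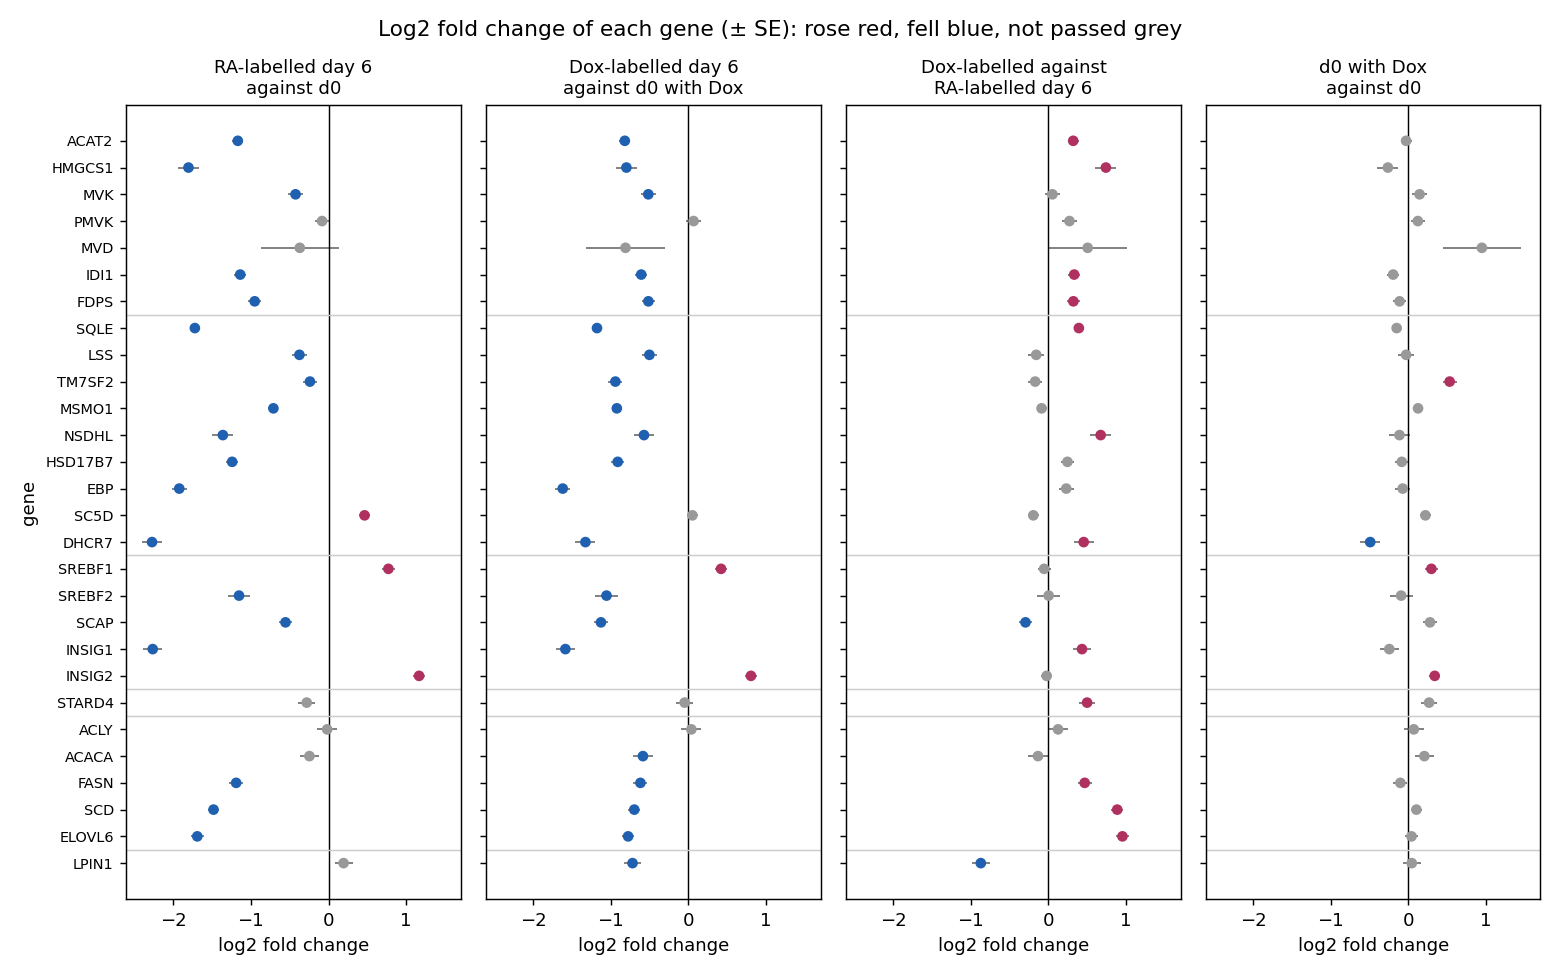
Each point is a member's log2 fold change with its SE in the 4 comparisons, with genes by role. Red points rose, blue points fell and grey points did not pass an adjusted p of 0.05. Points for the mevalonate, sterol and fatty acid genes lie mostly left of 0 in both comparisons of day 6 with d0 and mostly right of 0 in the Dox-labelled against RA-labelled comparison.

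The Dox-labelled and RA-labelled day 6 cells, which shared medium and day, were compared directly. By their labels they differed in both retinoic acid and Dox, so effects of retinoic acid and of Dox cannot be told apart. This comparison uses the same day 6 arrays as those above. Of the 28 members, 12 were higher and 2 lower in the Dox-labelled cells, where 13.7% of all genes were called higher and 12.2% lower. The members' median was 0.26 (log2), against 0.00 over all genes. Higher genes came from the mevalonate arm (4 of 7), the sterol arm (3 of 9), fatty acid synthesis (3 of 5), the regulators (INSIG1) and STARD4, and the lower ones were SCAP and LPIN1. Of these 14 calls, 7 held in all 15 alternative analyses. Of the 10 proliferation markers, 9 were also higher in the Dox-labelled cells (median 0.76), and their part in the difference was not tested.

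The 2 largest differences were in fatty acid modification. ELOVL6 read 2069, 1779.7 and 1969.8 in RA-labelled arrays and 3916, 3941 and 3446 in Dox-labelled ones, a difference of 0.95 ± 0.08 (adjusted p = 2.16e-05), 1.93-fold. SCD averaged 7011 ± 225 in RA-labelled arrays and 12968 ± 503 in Dox-labelled ones, a difference of 0.89 ± 0.08 (adjusted p = 1.94e-05). For both genes the Dox-labelled arrays lay between the RA-labelled and the d0 arrays. FASN was 1.38-fold higher (adjusted p = 0.00385), a call lost when its probe sets were averaged (adjusted p = 0.474). The further probe set of FASN was dim, averaging 15.4 units over all arrays. ACLY and ACACA did not pass, with differences of 0.12 and -0.13.

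HMGCS1 led the mevalonate arm, with 952, 1109.6 and 902 in RA-labelled arrays and 1701, 1760.0 and 1511 in Dox-labelled ones. All 3 Dox-labelled arrays were higher, a difference of 0.74 ± 0.13 (adjusted p = 0.00257), 1.67-fold. ACAT2 was higher by 0.32 (log2), FDPS by 0.32 and IDI1 by 0.33. The IDI1 call was lost, at 0.03, with its probe sets averaged, and the FDPS call was lost in 4 alternatives. NSDHL led the sterol arm, with 603, 575 and 615 in RA-labelled arrays and 1077, 913 and 904 in Dox-labelled ones, which did not overlap. Its difference was 0.67 ± 0.13 (adjusted p = 0.00439). SQLE was higher by 0.39 (adjusted p = 0.00116) and DHCR7 by 0.45 (adjusted p = 0.0265), the latter lost in 4 alternatives. EBP and HSD17B7 had differences of 0.23 and 0.24 that did not pass (adjusted p = 0.11 and 0.0512).

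Among the regulators, INSIG1 was higher in the Dox-labelled arrays by 0.43 ± 0.12 (adjusted p = 0.0244), a call lost in 5 alternatives. SCAP read 1636, 1726 and 1859 in RA-labelled arrays and 1536, 1407 and 1306 in Dox-labelled ones, a difference of -0.30 ± 0.09 (adjusted p = 0.0342) that was lost in 7 alternatives. SREBF1, SREBF2 and INSIG2 had differences of -0.06, 0.00 and -0.02, did not pass and overlapped between the groups. STARD4 read 2008, 1943 and 1725 in RA-labelled arrays and 2653, 2868 and 2504 in Dox-labelled ones, all of them higher, with a difference of 0.50 ± 0.11 (adjusted p = 0.00662). LPIN1 went the other way, with 966, 883 and 943 in RA-labelled arrays and 567, 419 and 530.0 in Dox-labelled ones. Every Dox-labelled array was lower, a difference of -0.87 ± 0.12 (adjusted p = 0.000371), 1.83-fold, though with its probe sets averaged it was -0.39 (adjusted p = 0.055).

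**Figure D4:**
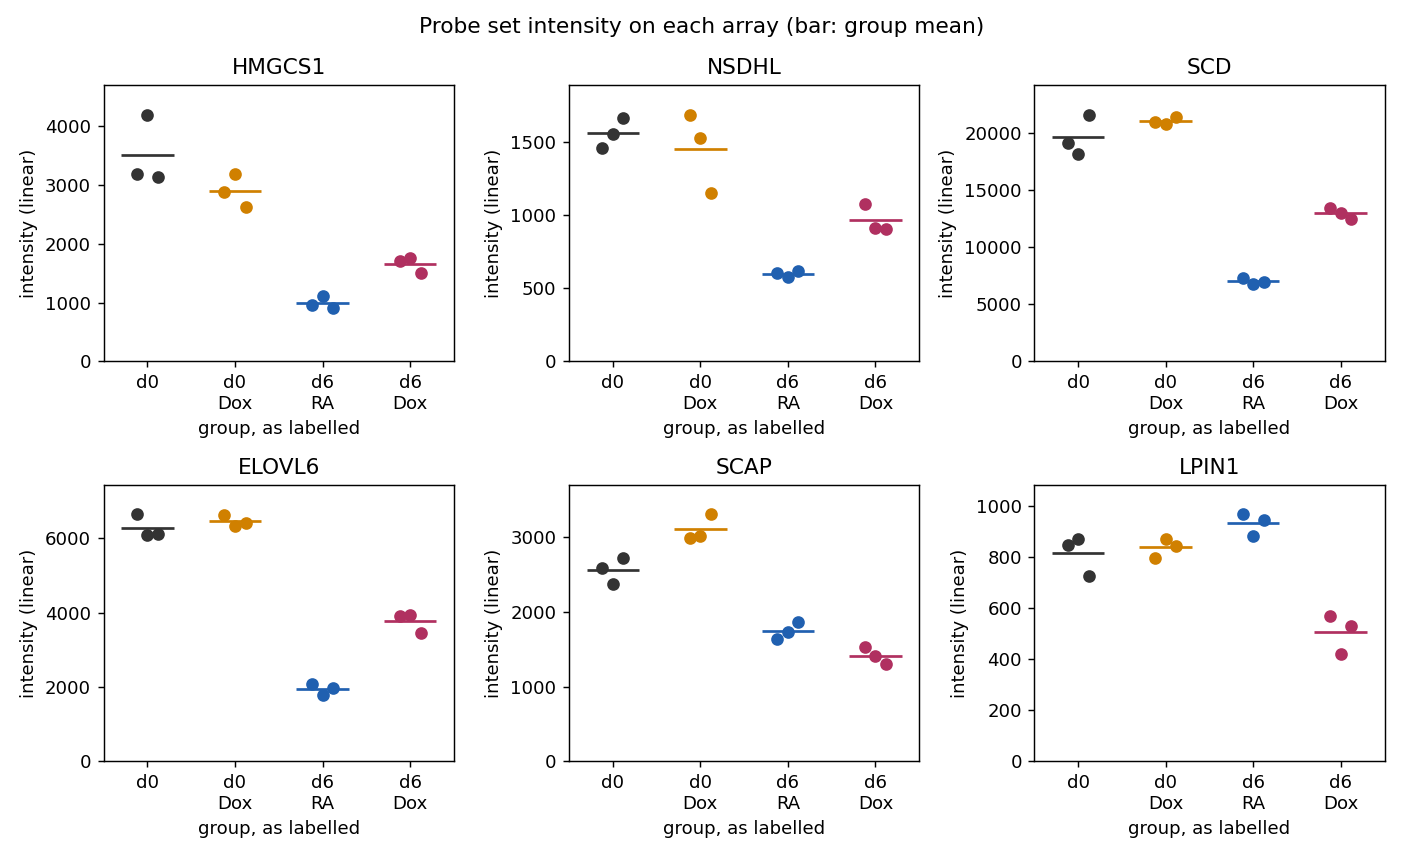
Each point is the linear intensity on 1 array for members that differed between the day 6 groups, with bars at the group means. The Dox-labelled arrays lie between the RA-labelled and the d0 arrays for ELOVL6, SCD and HMGCS1, and below all other arrays for LPIN1.

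In undifferentiated cells, 4 days of Dox were compared with no treatment, in the same medium. Of the 28 members, 3 rose, 1 fell and 24 did not pass, where 7.75% of all genes were called higher and 5.16% lower. The members' median change was 0.04 and that of all genes 0.03. TM7SF2 had the largest called rise, from 997, 1017 and 998 to 1452, 1412 and 1511 with Dox. Every Dox array was higher, a change of 0.53 ± 0.09 (adjusted p = 0.00381), and this was the only one of the 4 calls that held in all 15 alternatives. INSIG2 rose by 0.34 (adjusted p = 0.013) and SREBF1 by 0.30 (adjusted p = 0.0432), and no Dox array overlapped the untreated ones for either gene. The INSIG2 call was lost in 3 alternatives and the SREBF1 call in 9. DHCR7 read 2708, 2566 and 2453 untreated and 1906, 1846 and 1731 with Dox, a change of -0.49 ± 0.13 (adjusted p = 0.0333) that was lost whenever any 1 array was left out. INSIG1 and SREBF2 had changes of -0.25 (adjusted p = 0.233) and -0.09 (adjusted p = 0.756). No gene of the mevalonate arm or of fatty acid synthesis passed on its brightest probe set, and the proliferation markers, 1 of 10 called lower, summed to 57563 to 64088 untreated and 64336 to 66271 with Dox.

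Other probe sets of the same genes give another reading within these arrays. Of the 28 members, 18 had more than 1 probe set, 34 further ones in all. Several were dim against array medians of 64.2 to 78.0, with means of 15.4 for FASN, 76.2 and 40.2 for LSS and 35.4 for SREBF1. A further probe set of LPIN1 averaged 28.9, and averaging probe sets gives such ones full weight. In the RA-labelled against d0 comparison, 22 of the 34 were called in the direction of the brightest probe set. Another 4, of LSS, MVK and SC5D, went the other way without passing. In the Dox-labelled against d0 Dox comparison 23 were called in the same direction and 2, of LSS, went the other way without passing. Between the day 6 groups 11 were called in the same direction and 3, of IDI1 and LPIN1, went the other way without passing. The further probe sets of INSIG1 changed by -2.08 and -2.03 in the RA-labelled comparison, those of ELOVL6 by -1.92 and -1.67, and that of DHCR7 by -1.55. The further probe set of DHCR7 did not show the d0 fall with Dox (0.12, adjusted p = 0.707). In that comparison 1 further probe set each of IDI1 (-0.45, adjusted p = 0.02) and SQLE (-0.33, adjusted p = 0.0296) was called lower, where the brightest was not called. For ACLY, 1 further probe set was called lower in the RA-labelled (-0.62) and the Dox-labelled day 6 cells (-0.47), where the brightest was not called. The further probe set of ACACA was called lower in the RA-labelled cells (-1.19, adjusted p = 0.000123), and with its probe sets averaged ACACA was called lower there, at -0.72 (adjusted p = 0.000362).

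Other genes of lipid metabolism moved in both directions. Of 17 other sterol and isoprenoid genes measured, 8 rose and 7 fell in the RA-labelled cells against d0 (median 0.08), and 6 rose and 8 fell in the Dox-labelled cells against d0 with Dox (median 0.01). The largest rise was that of SOAT1, which esterifies cholesterol for storage, with means of 327 at d0, 765 at d0 with Dox, 1787 in RA-labelled arrays and 1113 in Dox-labelled ones. It rose by 2.39 in the RA-labelled cells, by 0.53 in the Dox-labelled cells and by 1.19 with Dox at d0 (adjusted p = 0.00012). MBTPS2, a protease that releases the SREBPs, rose by 1.13 in the RA-labelled cells, or 0.40 with its probe sets averaged. COQ2, of ubiquinone synthesis, fell, with changes of -1.37 and -1.40 under the RA and Dox labels, and NUS1, of dolichol synthesis, fell by 1.24 in the RA-labelled cells.

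Of 6 genes of the LXR response and sterol efflux, 3 rose and 2 fell in the RA-labelled cells, and 2 rose and 3 fell in the Dox-labelled cells. ABCA1, the exporter that loads cholesterol onto lipoproteins, read 269.6, 290.1 and 238 at d0 and 719, 603 and 671 at d0 with Dox. It read 4569.7, 4554 and 4601 in RA-labelled arrays and 3472, 3639 and 4119.7 in Dox-labelled ones. All day 6 arrays were above all d0 arrays, and its changes were 4.03 ± 0.10 (adjusted p = 1.01e-09) and 2.47 ± 0.10 (adjusted p = 2.27e-08), or 1.69 and 1.10 with its probe sets averaged. It also rose with Dox at d0, by 1.27 (adjusted p = 3.19e-05), or 0.56 with its probe sets averaged. ABCG1, another exporter, rose by 1.54 in the RA-labelled cells from a dim mean of 37.3, or 1.00 with its probe sets averaged. None of its 3 further probe sets was called there. Its change in the Dox-labelled cells was 0.62 and did not pass (adjusted p = 0.167). SMPDL3A, a known LXR target, rose by 1.58 in the Dox-labelled cells, or 0.52 with its probe sets averaged. MYLIP fell, with changes of -0.25 and -0.69 under the RA and Dox labels. LPCAT3 fell, with changes of -0.49 and -0.55, and NR1H3 fell by 0.74 under the Dox label. The MYLIP call under the RA label was lost in 7 alternatives, and the LPCAT3 calls in 6 and 7.

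Of 18 other genes of fatty acid synthesis, elongation and desaturation, 6 rose and 7 fell in the RA-labelled cells, and 5 rose and 7 fell in the Dox-labelled cells. ME1, which makes NADPH for fatty acid synthesis, averaged 958 ± 93.0 at d0, 1717 ± 101 at d0 with Dox, 9521 ± 429 in RA-labelled arrays and 4216 ± 102 in Dox-labelled ones (SD, n = 3 each). It rose by 3.29 and 1.29 (log2) at day 6 and was lower in the Dox-labelled than in the RA-labelled cells, a difference of -1.17 (adjusted p = 5.73e-06). ACACB, the mitochondrial counterpart of ACACA, fell, with changes of -0.95 and -1.66 (-0.49 and -1.01 with probe sets averaged), and FADS2, a desaturase of polyunsaturated fatty acids, fell by 0.92 in the RA-labelled cells. Of 12 other glycerolipid genes, 5 rose and 3 fell in the RA-labelled cells, and 3 rose and 5 fell in the Dox-labelled cells. AGPAT5, an acyltransferase of phosphatidate synthesis, fell, with changes of -1.80 and -1.59. Its relative AGPAT4 averaged 690.4, 1960.2, 2080.3 and 678 in the d0, d0 Dox, RA-labelled and Dox-labelled arrays, and it rose with Dox at d0 (1.49, adjusted p = 8.68e-06) and was lower in the Dox-labelled than in the RA-labelled cells (-1.59, adjusted p = 1.77e-06). Of 20 genes of fatty acid oxidation, 9 rose and 7 fell in the RA-labelled cells, and 8 rose and 6 fell in the Dox-labelled cells. CPT1A, which admits fatty acids to the mitochondrion, fell from a mean of 728 ± 58.0 at d0 to 26.3 ± 25.1 in the RA-labelled arrays, a change of -4.29, or -2.77 with its probe sets averaged. SLC25A20, the carnitine carrier of the same step, rose by 1.54 and 1.04.

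Cell type markers and RNA quality differed between the groups. All 11 pluripotency markers fell in both comparisons of day 6 with d0, and their summed intensity was 142836 to 158391 at d0, 138380 to 143006 at d0 with Dox, 36081 to 37917 with the RA label and 45927 to 47151 with the Dox label at day 6. Of 10 mesenchymal and smooth muscle markers, 8 rose with the RA label and 9 with the Dox label. Of all genes, 25.3% and 22.2% were called higher in these comparisons. The mesenchymal sums were 102874 to 115403 and 109362 to 113536 against 38464 to 39851 at d0. The 9 neural markers summed to 14303 to 15828 at d0, 26286 to 28821 with the RA label and 26165.5 to 26883 with the Dox label. Of these, 4 rose and 3 fell with the RA label, and 3 rose and 3 fell with the Dox label. With Dox at d0, 4 rose and 1 fell. Trophoblast markers summed to 3939 to 4656 at d0, 7187 to 8689.7 with the RA label and 39020.3 to 40388 with the Dox label. In each group 1 of the 7 trophoblast markers was under 16 units. Markers of liver and yolk sac endoderm, tissues with high lipid synthesis, were measured for 10 genes. They summed to 700 to 898 at d0, 1507 to 5143 with the RA label and 3866 to 6743 with the Dox label. The 6 adipocyte markers summed to 405 to 587 with the Dox label and to at most 225 in any other array. Only 1 of the 6 was called higher with the Dox label, both against d0 with Dox and against the RA label. Against d0 with Dox 1 was called lower, 4 did not pass, and the median change was -0.22. Of these markers, 3 or 4 averaged under 16 units in each group. The signal of the 3′ ACTB probe set over that of its 5′ probe set, a ratio that rises as RNA is shortened, averaged 3.24 at d0, 3.86 at d0 with Dox, 2.59 with the RA label and 2.33 with the Dox label at day 6. For GAPDH the same ratio averaged 1.53, 1.62, 1.35 and 1.46 in these groups, so the day 6 groups stood in the other order. Its d0 arrays (1.47 to 1.59) overlapped the Dox-labelled day 6 arrays (1.44 to 1.49). The part of cell type make-up and of RNA quality in the members' changes was not tested.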

How the data were processed

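Total RNA, extracted with TRIzol and labelled with biotin per the labels' protocols, was read on Affymetrix arrays of 54675 probe sets, 12 arrays in 4 groups of 3 named from the sample titles. The authors deposited linear probe set intensity values; the background correction, summarisation and scaling are not given in the sources used here. The mean after trimming 2% at each end was 500.1 on every array, and the number of arrays, 3 a group, limits the precision.

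GEO's platform annotation named 41097 probe sets with 1 gene symbol, 1801 with several and 11777 with none. For each of 19775 genes the brightest of its single-symbol probe sets, by the mean log2 value over all arrays, was kept. log2(intensity + 16) was fitted with limma 3.58.1 (R 4.3.3; lmFit and eBayes, 4 group means, 8 residual degrees of freedom, no filter on dim genes) and adjusted by Benjamini-Hochberg over all genes. The code was tested on simulated data. The group means of the 2 comparisons of day 6 with d0 share no array, and the other comparisons reuse their arrays. All comparisons share the estimate of spread from all arrays.

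The members and all gene lists were chosen with earlier results of these data known. Array values are given for the largest called rise and fall of each role group and for SREBF1, SREBF2, INSIG1 and INSIG2; from other lists up to 2 called rises and 2 falls a comparison; and for NR6A1, NANOG and CYP26A1 as label checks. SCD, EBP in the RA-labelled cells and other members were named because every member is accounted for. Alternatives were quantile normalization, median centring, a pseudocount of 1, averaged probe sets, genes above the median only, a trended robust prior, array weights, the 6 compared arrays alone, the replicate number as a block, and each array left out. Promoters came from RefSeq and were searched over 250 bases.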

Additional observations from a re-analysis of the deposited data

Results flagged for a closer look

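For 1 member and 5 genes of the other lipid lists, all 3 day 6 arrays moved one way against their d0 group under the RA label and the opposite way under the Dox label. The measured members numbered 28, and the other lists held 17, 6, 18, 12 and 20 measured genes. How many of all genes meet this rule was not counted, so no share stands beside this number. The difference between the pair of changes was not tested, and all directions rest on the day 6 labels. LPIN1, the member, had changes of 0.19 (log2, not called) under the RA label and -0.72 under the Dox label. AGPAT4, an acyltransferase of the same route, rose by 1.57 and had a change of -1.51, and DGAT2, which makes triglyceride, rose by 0.52 from a dim signal and had a change of -1.68. RNF139, an E3 ligase of the endoplasmic reticulum, had changes of 0.24 and -0.26. FDX1, a mitochondrial ferredoxin, had changes of -0.18 and 0.43. PPARGC1A, a coactivator of oxidative metabolism, was dim and had changes of -0.66 and 0.82. The d0 arrays without and with Dox also differed for AGPAT4 (690.4 and 1960.2 on average), DGAT2 (130 and 261) and RNF139 (2380 and 2997). For these genes each change is therefore set against a different starting level. RNF139 averaged 2494 in the Dox-labelled day 6 arrays, above untreated d0. Calls under the RA label were lost in 8 alternatives for FDX1, 6 for DGAT2 and 1 each for RNF139 and PPARGC1A. Under the Dox label only the RNF139 call was lost, with median centring. Both AGPAT4 calls held in all alternatives.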

How the results depend on the processing

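Each comparison was repeated under 15 alternatives. Of the member calls, 19 of 22 held in all of them for the RA-labelled cells against d0, 20 of 23 for the Dox-labelled cells against d0 with Dox, 7 of 14 between the day 6 groups and 1 of 4 for Dox at d0. Over all members and alternatives 1561 values kept direction and call, 57 lost the call, 25 gained it, 30 changed sign without being called on either side, and 3 turned sign where one of the values was called. These 3 came from averaging a gene's probe sets: LSS in the RA-labelled cells (0.15, against -0.37) and in the Dox-labelled cells (0.21, against -0.50), and ACLY in the Dox-labelled cells (-0.21, against 0.04). That setting also took the members that rose in the Dox-labelled cells against d0 with Dox from 2 to 1, those lower in the Dox-labelled than in the RA-labelled cells from 2 to 1, and those that fell with Dox at d0 from 1 to 0. The members lower in the Dox-labelled than in the RA-labelled cells were also 1 with median centring, with the 6 arrays alone and with the replicate block, and 1 to 3 with an array left out. The members that rose with Dox at d0 numbered 5, against 3, among genes above the median and with a trended robust prior, 1 with the 6 arrays alone, and 1 to 3 with an array left out, the lowest without d0 Dox replicate 2. Those that fell numbered 0 to 0 with an array left out. The cause of these moves was not tested.

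Deviations of same-numbered arrays correlated only weakly, at -0.01 to 0.05. Every array correlated best with its own number in the Dox-labelled against d0 Dox comparison, and at least 1 array did so in each other comparison. Whether the replicate numbers mark paired cultures cannot be told from these values. With the replicate block the members that rose and fell were 2 and 1 for Dox at d0, 13 and 1 between the day 6 groups, 3 and 18 for the RA-labelled and 2 and 21 for the Dox-labelled cells. Dim probe sets such as those of MVD limit what could be detected.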
